A study of Mus musculus with 12 samples.

Results

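The genes described here are the Zscan4 cluster of mouse chromosome 7 (Zscan4a, Zscan4b, Zscan4c, Zscan4d, Zscan4e and Zscan4f) together with Tmem92, Usp17le and Zfp352, which are transcribed with it in 2-cell-like cells. They were chosen by name. Of the 9 genes, 8 were found by symbol in a deposited table of 30761 transcript entries that gave 23496 genes; Zscan4e was not matched to an entry and is not analysed here. The measurements are RNA-seq levels in mouse embryonic stem cells (ESCs), in 12 libraries that form 3 groups of 4. The first group is labelled Tfcp2l1 knockout (KO) and was grown in 2i, a medium without serum that holds LIF (1000 units/mL) and a pair of kinase inhibitors, CHIR99021 (3 µM) against GSK3 and PD0325901 (1 µM) against MEK. The second group is wild type (WT) in that same 2i medium, and the third is WT in a DMEM-based medium with LIF (1000 units/mL) and fetal bovine serum (FBS, 15%), without the inhibitors. LIF was thus present in all 3 groups. The labels name no parental line, no clone of the knockout, no feeder cells and no separate cultures for the 4 libraries of a group, so the p-values given here weigh differences against the spread of these libraries alone, which may be technical.

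A small and changing fraction of mouse ESCs passes through a state in which transcripts of the 2-cell embryo are made, when the zygotic genome is first switched on. Zscan4 proteins carry a SCAN domain and zinc fingers, mark this state and are known for their part in telomere maintenance in ESCs. The double homeobox factor Dux binds near many genes of this program, and chromatin repressors such as Trim28 and Setdb1 hold it down in most cells. Bulk RNA cannot tell apart more cells in this state and more of the transcript in each such cell.

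The promoters of the cluster are shown because the copies are close in sequence as well as in level. RefSeq (GRCm38.p6) windows of 250 bases before to 50 bases after the annotated start were at hand for 5 of the 9 genes: Zscan4b, Zscan4c, Zscan4d, Zscan4f and Zfp352. The 2 Zscan4 windows printed are those of the copies with the highest and the lowest level, Zscan4f (chr7:11397665-11397964, plus strand) and Zscan4d (chr7:11166099-11166398, minus strand). Zfp352 (chr4:90218570-90218869, plus strand) is printed as the member outside the cluster. Capitals mark matches to TGATNNNATCA, a pair of TGAT sites of the kind that double homeobox proteins bind, and to the TATA box TATAAA, both searched on both strands.
Zscan4f: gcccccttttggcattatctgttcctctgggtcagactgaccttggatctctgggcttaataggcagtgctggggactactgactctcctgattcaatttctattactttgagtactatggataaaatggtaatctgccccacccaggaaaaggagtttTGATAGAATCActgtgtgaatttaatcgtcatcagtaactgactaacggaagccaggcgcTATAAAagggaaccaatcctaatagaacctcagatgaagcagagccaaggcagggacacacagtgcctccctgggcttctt
Zscan4d: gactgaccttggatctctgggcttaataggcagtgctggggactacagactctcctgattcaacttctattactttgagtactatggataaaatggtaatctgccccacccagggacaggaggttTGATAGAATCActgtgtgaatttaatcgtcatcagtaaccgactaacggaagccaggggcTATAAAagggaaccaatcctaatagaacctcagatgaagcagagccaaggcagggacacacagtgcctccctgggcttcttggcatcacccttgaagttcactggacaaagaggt
Zfp352: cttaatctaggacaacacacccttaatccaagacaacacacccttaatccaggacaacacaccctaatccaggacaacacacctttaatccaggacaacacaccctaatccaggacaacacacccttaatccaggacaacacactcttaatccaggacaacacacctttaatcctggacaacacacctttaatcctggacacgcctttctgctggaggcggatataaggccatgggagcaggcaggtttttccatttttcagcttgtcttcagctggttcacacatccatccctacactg
The Zscan4 windows matched each other at 95.3% to 99.3% of aligned positions over the 6 pairs of copies, and a run of 55 bases that takes in the TATA box was identical in all 4. Each of the 4 held TGATAGAATCA, the only form of the paired TGAT motif found, whereas 0.479% of 32544 distinct RefSeq promoter windows of the same length held any match to it. TATAAA stood in all 4 Zscan4 windows and in 13.6% of all windows. In Zscan4f the paired TGAT motif began 91 bases and the TATA box 31 bases upstream of the annotated start; in Zscan4d they began 125 and 65 bases upstream, so the spacing between them was the same and the annotated starts differed. CCNGNNNNNNCCNG, the spaced repeat bound by the CP2 family to which Tfcp2l1 belongs, was found in none of the 5 windows, against 29.5% of all windows. The Zfp352 window held none of these 3 motifs. It held 9 copies of the word TAATCC, a word searched for after the window had been read. A match, or the lack of one, is a description of these letters and not of binding. The 4 Zscan4 windows are near-identical copies, so they do not count as independent windows in any comparison with all windows.

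The Zscan4 transcripts themselves are near-identical copies. GENCODE vM21 transcripts of the 6 genes, the longest of each gene, matched at 94.1% to 97.8% of aligned positions. The deposited entries are RefSeq transcripts, which may differ from these. Of all 50-base stretches, the share also found in another Zscan4 transcript was 95.3% for Zscan4f, 90.3% for Zscan4b, 85.5% for Zscan4c, 63.6% for Zscan4a and 49.6% for Zscan4d. For Usp17le, of the Usp17l deubiquitinase family, 30.7% of stretches stood in another family member, and for Tmem92 and Zfp352 none did. How reads that fit several copies were divided is not stated in the labels or the file headers, so the level of a single Zscan4 copy is uncertain, while the sum over copies depends less on that division.

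All levels are deposited by the authors as FPKM, which counts sequenced fragments relative to transcript length and to the size of the library. Some Zscan4 values lay above the upper bound deposited with them. In KO replicate 1, Zscan4f at 151.9 FPKM had bounds of 134.7 to 142.2, and Zscan4a at 73.6 FPKM had 66.3 to 71.5. Values of Tmem92 and Zfp352 lay within their bounds. The cause was not tested, and the sum over copies is uncertain for this reason too. Zscan4f (mm9, chromosome 7, 11983264 to 11987667) was the most abundant copy. It stood at 151.9, 131.3, 154.5 and 82.9 FPKM in KO libraries 1 to 4, at 91.2, 35.9, 102.7 and 27.2 FPKM in WT 2i, and at 1.92, 0.513, 4.49 and 4.58 FPKM in WT FBS. KO replicate 4 lay below the other KO libraries and below WT 2i replicates 1 and 3, so the groups in 2i overlapped, while every 2i library lay above every FBS library. Zscan4c (chromosome 7, 11591094 to 11595896) had 98.7, 81.8, 98.0 and 51.7 FPKM in KO, 58.3, 23.5, 66.7 and 16.8 FPKM in WT 2i, and 1.19, 0.219, 2.85 and 3.00 FPKM in WT FBS. Again WT 2i replicates 1 and 3 were high and replicates 2 and 4 low.

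Zscan4a (chromosome 7, 11379590 to 11384414), listed in RefSeq as a non-coding transcript, had 73.6, 61.5, 72.4 and 39.6 FPKM in KO, 39.3, 15.5, 45.5 and 11.9 FPKM in WT 2i, and 0.735, 0.201, 1.75 and 1.90 FPKM in WT FBS. Zscan4b (chromosome 7, 11486089 to 11490399) had 63.4, 53.9, 61.5 and 32.5 FPKM in KO, 31.9, 11.1, 33.1 and 9.41 FPKM in WT 2i, and 0.641, 0.168, 1.84 and 1.90 FPKM in WT FBS. For both, 3 of the 4 KO libraries lay above all WT 2i libraries. Zscan4d (chromosome 7, 11746992 to 11751497), the copy described in the 2-cell embryo itself, was the least abundant, with 41.1, 37.2, 42.0 and 22.9 FPKM in KO, 23.3, 8.64, 24.8 and 7.20 FPKM in WT 2i, and 0.524, 0.0216, 1.28 and 1.45 FPKM in WT FBS. One more entry of the cluster, NM_001161802 (chromosome 7, 11891727 to 11896031, between Zscan4d and Zscan4f), is paired with no gene name in the tables used, and it stood at 74.4 ± 18.6 FPKM in KO, 31.6 ± 18.4 FPKM in WT 2i and 1.57 ± 1.23 FPKM in WT FBS (SD, n = 4 each).

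**Figure D1:**
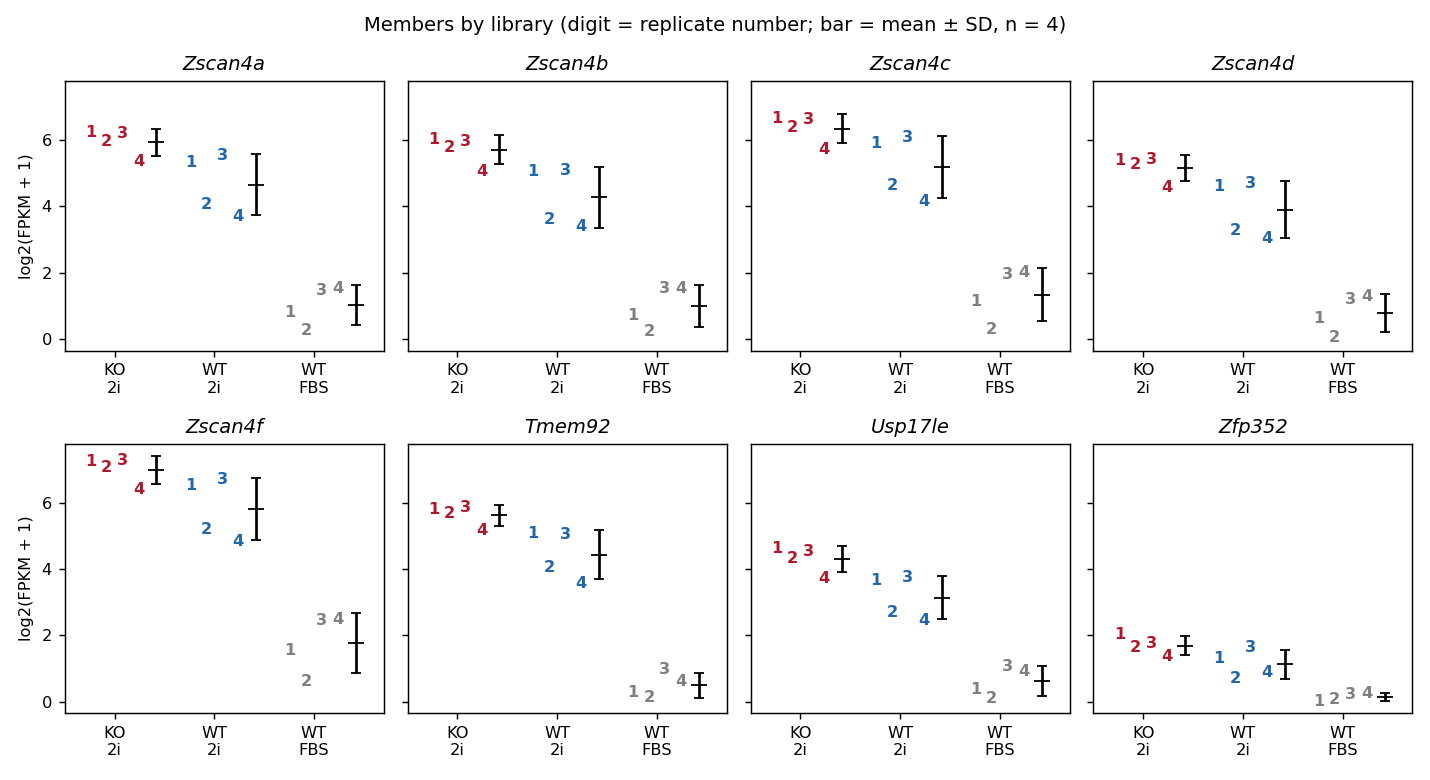
Level of each of the 8 genes found, as log2(FPKM + 1), in Tfcp2l1 KO in 2i (red), WT in 2i (blue) and WT in FBS (grey). Each digit is 1 library at its replicate number, and the black bar is the mean ± SD of 4 libraries; WT 2i replicates 1 and 3 stand above replicates 2 and 4 for every gene, and the FBS libraries lie below all others.

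Summed over the 5 named copies, Zscan4 stood at 428.7, 365.7, 428.4 and 229.6 FPKM in KO, at 244.1, 94.6, 272.8 and 72.6 FPKM in WT 2i, and at 5.004, 1.12, 12.2 and 12.8 FPKM in WT FBS. The means were 363 ± 93.8 FPKM in KO, 171 ± 102 FPKM in WT 2i and 7.79 ± 5.69 FPKM in WT FBS (SD, n = 4 each). The highest library was 1.87 times the lowest in KO, 3.76 times in WT 2i and 11.4 times in WT FBS. The mean of log2(summed FPKM + 1) differed by 1.26 between KO and WT in 2i and by 4.41 between 2i and FBS in WT; both are descriptions without a test.

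While the sum moved, the make-up of the cluster did not move much. Zscan4f held 29.5% to 29.9% of the 6 cluster entries in KO and 31.3% to 32.2% in WT 2i. Zscan4c held 18.5% to 19.2% in KO and 19.4% to 21.0% in WT 2i, and Zscan4b held 11.7% to 12.3% in KO and 9.90% to 11.02% in WT 2i. The unnamed entry held 16.6% to 17.3% in KO and 15.2% to 16.5% in WT 2i. The ranges of these 4 of the 6 entries did not overlap between the groups in 2i, with differences of at most a few percentage points, while the ranges of Zscan4a (13.9% to 14.3% in KO, 13.6% to 14.1% in WT 2i) and Zscan4d (7.99% to 8.41% in KO, 7.71% to 8.28% in WT 2i) did. In WT FBS, where levels were near 1 FPKM, shares spread more, from 29.8% to 39.8% for Zscan4f and from 1.68% to 9.57% for Zscan4d.

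**Figure D2:**
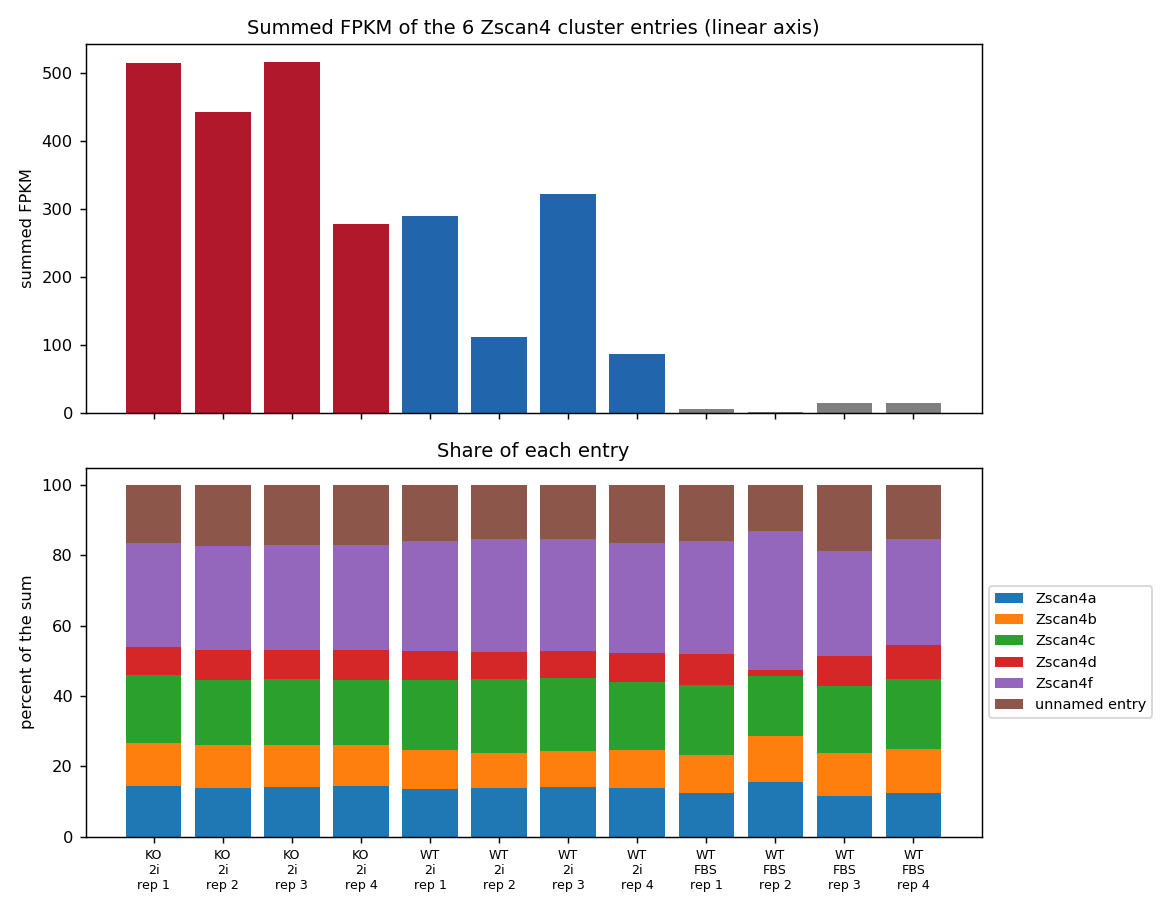
Top, FPKM summed over the 5 named Zscan4 entries and the unnamed entry of the cluster in each library, on a linear axis from 0, for KO 2i, WT 2i and WT FBS. Bottom, the percent of that sum in each entry; the sum runs from 277 to 516 FPKM in KO, from 87.0 to 322 in WT 2i and from 1.29 to 15.2 in WT FBS, while the shares stay within a few percentage points in 2i.

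Tmem92 (chromosome 11, 2 entries within 94638531 to 94693316), which encodes a transmembrane protein, had 54.1, 49.9, 56.8 and 34.6 FPKM in KO, 32.9, 15.6, 31.9 and 10.9 FPKM in WT 2i, and 0.206, 0.0836, 0.978 and 0.514 FPKM in WT FBS. It was the only one of the 8 genes whose KO libraries all lay above all WT 2i libraries, as was so for 23.7% of tested genes. Usp17le (chromosome 7, 111916563 to 111925984), far from the Zscan4 cluster on the same chromosome, had 23.7, 18.8, 22.3 and 12.2 FPKM in KO, 11.6, 5.50, 12.3 and 4.48 FPKM in WT 2i, and 0.301, 0.0787, 1.09 and 0.877 FPKM in WT FBS; only KO replicate 4 reached down into the WT 2i range. Zfp352 (chromosome 4, 89885511 to 89892378), a zinc finger gene transcribed in the 2-cell embryo, was the lowest, with 3.08, 2.07, 2.39 and 1.58 FPKM in KO, 1.48, 0.607, 2.09 and 0.827 FPKM in WT 2i, and 0.0484, 0.164 and 0.180 FPKM in WT FBS replicates 2 to 4, with replicate 1 listed at 0.

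By level, the order in both 2i groups was Zscan4f, Zscan4c, Zscan4a, Zscan4b, Tmem92, Zscan4d, Usp17le and Zfp352, except that Tmem92 (22.8 ± 11.2 FPKM) stood just above Zscan4b (21.4 ± 12.9 FPKM) in WT 2i. In KO, neighbours whose means lay further apart than the larger of their SDs were Zscan4f over Zscan4c, Tmem92 over Zscan4d, Zscan4d over Usp17le and Usp17le over Zfp352. In WT 2i this held only for Usp17le over Zfp352, and in WT FBS, where the order ended with Zscan4d, Usp17le, Tmem92 and Zfp352, for no neighbours.

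The first comparison set KO against WT in 2i and asks which transcripts depend on Tfcp2l1, a transcription factor of naive ESCs. With the limma model over all 12 libraries, 6 of the 8 genes rose in KO and none fell; one of the 6, Zfp352, met the filter on low values only through its KO libraries. Over all 12329 genes tested, 24% rose and 21.4% fell in KO, and 45.3% were called in either direction. Called rises of at least 1 on the log2(FPKM + 1) scale made up 1.3% of tested genes and 5 of the 8. Zscan4a, Zscan4b and Zscan4d are among the 5, and as near-identical copies they do not count as independent genes. Zscan4b rose by 1.43 (SE 0.42, limma adjusted p = 0.0142), Zscan4a by 1.28 (SE 0.41, limma adjusted p = 0.0219) and Zscan4d by 1.26 (SE 0.39, limma adjusted p = 0.0187) on that scale. Tmem92 rose by 1.18 (SE 0.31, limma adjusted p = 0.00851), Usp17le by 1.16 (SE 0.31, limma adjusted p = 0.00870) and Zfp352 by 0.57 (SE 0.19, limma adjusted p = 0.0258). Zscan4f (log2 difference 1.18, SE 0.47, limma adjusted p = 0.0574) and Zscan4c (log2 difference 1.15, SE 0.46, limma adjusted p = 0.0550) did not pass. As ratios of mean FPKM, KO over WT 2i, the 8 genes lay between 1.82 for Zfp352 and 2.47 for Zscan4b.

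Exact two-sided permutation tests over the 70 splits of 4 against 4 libraries gave p = 0.0286 for Tmem92, the smallest they can give. The exact permutation p was 0.0571 for Zscan4a, Zscan4b and Usp17le, and 0.0857 for Zscan4c, Zscan4d, Zscan4f and Zfp352. The calls depended on single libraries and on the scale. Without WT 2i replicate 2, or without replicate 4, 3 of the 8 genes passed (Zscan4b, Tmem92 and Usp17le). Without KO replicate 1, or without KO replicate 3, 4 of the 8 passed. With a pseudocount of 0.1 in place of 1, none passed in the fit of all 12 libraries (limma adjusted p = 0.0587 for Tmem92, 0.0623 for Zscan4b and 0.0685 for Usp17le). At that pseudocount, the 8 libraries of the comparison alone gave passing genes again, as given below. Over all alternatives, the limma adjusted p lay between 0.00304 and 0.131 for Tmem92 and Usp17le and reached 0.0907 for Zscan4b. Without KO replicate 4, without WT 2i replicate 1 or without WT 2i replicate 3, all 8 passed.

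The second comparison set 2i against FBS in WT and shares its WT 2i libraries with the first. All 8 genes were higher in 2i, against 37.1% of all tested genes (35.3% were lower, and 72.4% were called in either direction), and their groups did not overlap, as for 32% of tested genes in that direction. Genes called and higher by a log2 difference of at least 1 were 7 of the 8 and 7.09% of tested genes. Zscan4f stood at 64.3 ± 38.2 FPKM in WT 2i and 2.88 ± 2.00 FPKM in WT FBS (SD, n = 4 each), a log2 difference of 4.04 (SE 0.47, limma adjusted p = 5.87e-06). Tmem92 had the largest ratio of means, 51.2, with 22.8 ± 11.2 FPKM in WT 2i and 0.445 ± 0.399 FPKM in WT FBS, and a log2 difference of 3.94 (SE 0.31, limma adjusted p = 1.76e-07). Usp17le stood at 8.47 ± 4.05 FPKM in WT 2i and 0.587 ± 0.475 FPKM in WT FBS, with a log2 difference of 2.52 (SE 0.31, limma adjusted p = 9.41e-06). Zfp352 had the smallest, 0.99 (SE 0.19, limma adjusted p = 0.000377), at a level where the pseudocount of 1 understates the difference. The exact two-sided permutation p was 0.0286 for each of the 8. In this comparison the 8 genes stayed called in each alternative in which they were tested.

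**Figure D3:**
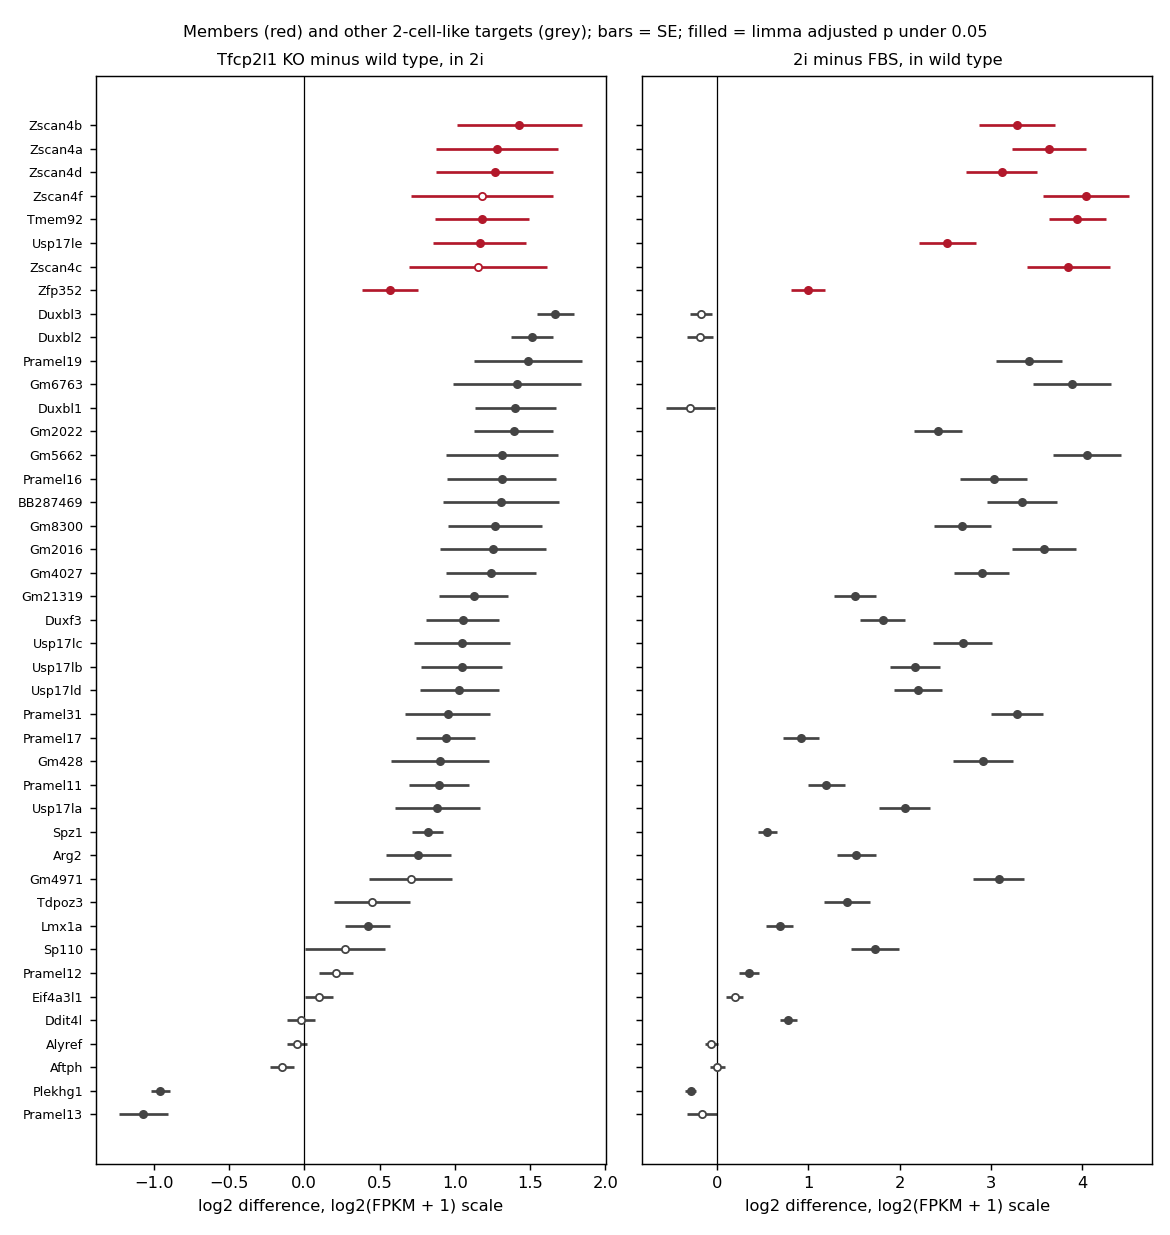
Differences on the log2(FPKM + 1) scale with SE bars for the 8 genes (red) and for the other tested 2-cell-like targets (grey), KO minus WT in 2i on the left and 2i minus FBS in WT on the right. Filled points passed at a limma adjusted p under 0.05; the 8 genes lie between 0.57 and 1.43 on the left and between 0.99 and 4.04 on the right.

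A gene was tested only when 4 or more libraries reached 1 FPKM. Of the 8 genes, 7 reached 1 FPKM in all 8 libraries in 2i. Zfp352 did so in 4 KO and 2 WT 2i libraries and in no FBS library, so it entered the test through KO, and Tmem92 reached 1 FPKM in no FBS library. None of the 8 reached 1 FPKM in all 4 FBS libraries, so each was tested only because of its 2i libraries. Their count in 2i minus FBS is therefore a description.

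Libraries of a group differed more in these genes than in most. The SD of log2(FPKM + 1) over the 4 WT 2i libraries was 0.95 for Zscan4c and 0.75 for Tmem92, against a median of 0.11 over all tested genes. In KO it was 0.43 for Zscan4c and 0.32 for Tmem92, against a median of 0.07. In the 2i groups each of the 8 genes varied more between libraries than 97.1% to 99.8% of tested genes did. In WT FBS the same held for 7 of them, above 98.0% to 99.8% of genes, and not for Zfp352, at 55.1%.

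The genes moved together within groups, as a description over 12 libraries with each group's mean removed. Pearson's r with summed Zscan4 was 0.85 for Tmem92, 0.91 for Usp17le and 0.68 for Zfp352. Within KO, WT 2i and WT FBS, r was 0.996, 0.991 and 0.856 for Tmem92 and 0.88, 0.91 and 0.73 for Zfp352. Zscan4a itself had 0.94 pooled, and 0.999, 0.9997 and 0.99 within these groups. Log2 summed Zscan4 spread most in WT FBS (SD 1.27, against 0.42 in KO and 0.95 in WT 2i). Low FBS values are compressed by the pseudocount, so the pooled ranking also depends on the level in FBS. Among the 12321 other tested genes, 12 had an r above 0.9. The most alike were the chromosome 10 gene models Gm21293, Gm21304 and Gm6763, at 0.9987, 0.99 and 0.99, of which Gm21304 and Gm6763 held almost the same value in every library. Gm21293 stood at 253.8, 224.4, 268.5 and 151.2 FPKM in KO, 126.5, 55.7, 138.4 and 43.7 FPKM in WT 2i, and 3.27, 0.708, 6.56 and 7.37 FPKM in WT FBS, high and low in the same libraries as Zscan4. The unnamed cluster entry NM_001161802 followed at 0.97, then Pramel39 of the PRAME-like family and Gm13057 at 0.96, Gm5039 at 0.93, and Pramel16 and Gm4303 at 0.92.

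Mael, a germline protein of the piRNA pathway, was also among the 10 most alike, at r = 0.96, and had another level pattern across media. It had 10.9, 10.7, 10.5 and 9.03 FPKM in KO, 5.37, 4.36, 6.41 and 3.72 FPKM in WT 2i, and 4.22, 3.05, 4.999 and 4.76 FPKM in WT FBS. Mael rose in KO (log2 difference 0.94, SE 0.14, limma adjusted p = 0.00026), while 2i minus FBS gave 0.18 (SE 0.14, limma adjusted p = 0.282) with overlapping libraries. Its libraries within a group spanned far less than those of Zscan4. The 5 genes least alike were Plec, which links the cytoskeleton to junctions, at -0.96, Krit1 and the autophagy receptor gene Sqstm1 at -0.94, and Pcyox1l and Zfp521 at -0.93. Plec held 2.46 and 2.62 FPKM in WT 2i replicates 1 and 3 and 3.16 and 3.14 FPKM in replicates 2 and 4, a narrow range that runs opposite to Zscan4.

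**Figure D4:**
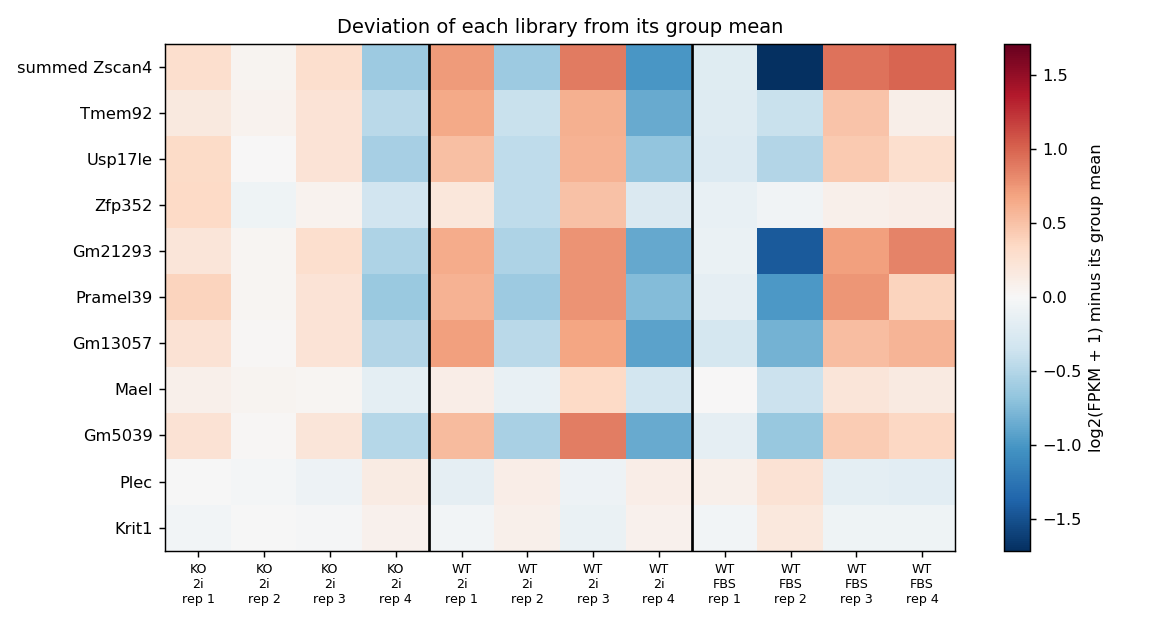
Deviation of each library from its group mean of log2(FPKM + 1), red above and blue below, for summed Zscan4, 3 other members, 5 of the 10 most alike genes and 2 of the least alike. WT 2i replicates 1 and 3 and FBS replicates 3 and 4 are red, and KO replicate 4, WT 2i replicates 2 and 4 and FBS replicate 2 are blue, down to Gm5039; Plec and Krit1 show the opposite in paler colours.

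Of 55 other listed targets of the 2-cell-like program, 46 were in the table and 35 were tested; 25 rose and 2 fell in KO, with a median log2 difference of 0.95, against 24% and 21.4% of all tested genes and a median of 0.01. In 2i minus FBS, 27 were higher and 1 lower, with a median of 1.73, against 37.1% and 35.3% of all tested genes and a median of 0.01. Of the 35, 6 entered the test only through KO, and 20 reached 1 FPKM in no FBS library. The filter thus favoured genes high in 2i, so the counts of both comparisons are a description. The list also holds related copies, such as Usp17la to Usp17ld, which do not count as independent genes. Pramel31, of the PRAME-like family, stood at 26.1 ± 5.89 FPKM in KO, 13.8 ± 6.35 FPKM in WT 2i and 0.437 ± 0.315 FPKM in WT FBS. Gm5662 stood at 77.9 ± 18.2 FPKM in KO, 34.5 ± 20.0 FPKM in WT 2i and 0.948 ± 0.605 FPKM in WT FBS, and Gm2016 at 43.5 ± 9.43 FPKM in KO, 20.0 ± 11.9 FPKM in WT 2i and 0.579 ± 0.416 FPKM in WT FBS (SD, n = 4 each). All 3 passed in both comparisons. Gm4971 passed in 2i minus FBS (3.08, SE 0.28, limma adjusted p = 5.09e-07) and stood at 15.6 ± 3.13 FPKM in KO and 9.92 ± 5.21 FPKM in WT 2i (limma adjusted p = 0.0523).

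Some listed targets had another pattern. Duxbl3, a double homeobox gene with near-identical copies on chromosome 14, stood at 10.6 ± 1.44 FPKM in KO, 2.68 ± 0.598 FPKM in WT 2i and 3.12 ± 0.320 FPKM in WT FBS. It rose in KO by 1.67 (SE 0.12, limma adjusted p = 8.06e-07), with 2i minus FBS at -0.18 (SE 0.12, limma adjusted p = 0.212). Plekhg1 fell in KO by 0.95 on the log2 scale (SE 0.07, limma adjusted p = 4.54e-07), to 1.84 ± 0.238 FPKM, against 4.50 ± 0.118 FPKM in WT 2i. Alyref, an mRNA export factor, was matched through the older name Tho4, so whether it is the gene the list means cannot be told. It was the most abundant gene matched to the list and passed in neither comparison. Its level was 86.8 ± 3.53 FPKM in KO, 90.0 ± 6.68 FPKM in WT 2i and 94.2 ± 8.48 FPKM in WT FBS. Tcstv1, Tcstv3 and AF067063 were listed at 0 in every library.

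Listed here as activators of the 2-cell-like state were 16 genes, a listing that may not hold for each of them. Of these, 13 were tested for a difference in level. In KO, 3 rose and 3 fell, near the 24% and 21.4% of all tested genes, with a median log2 difference of 0.01. In 2i minus FBS 9 were higher and 3 lower with a median of 0.43, against 37.1% and 35.3% of all tested genes. Duxf3, the entry for Dux, was named after its values were seen. It had 7.45 ± 1.31 FPKM in KO, 3.33 ± 1.77 FPKM in WT 2i and 0.153 ± 0.0921 FPKM in WT FBS, with log2 differences of 1.05 (SE 0.24, limma adjusted p = 0.0039) in KO and 1.81 (SE 0.24, limma adjusted p = 2.10e-05) for 2i minus FBS. Dppa4, which acts with Dppa2 upstream of Dux, rose in KO by 0.19 (SE 0.04, limma adjusted p = 0.00177) and was lower in 2i than in FBS, with 42.9 ± 0.806 FPKM in KO, 37.5 ± 0.931 FPKM in WT 2i and 50.2 ± 2.08 FPKM in WT FBS. The naive factors Tbx3 and Zfp42 and the 5-methylcytosine oxidase Tet2 fell in KO, by 0.61, 0.18 and 0.25 on the log2 scale (limma adjusted p = 0.00178, 0.00428 and 0.00446), and were higher in 2i than in FBS, by 2.38, 0.86 and 1.14. Nr5a2, an orphan nuclear receptor, was higher in 2i by 1.40 and Tet1 lower by 0.58, and neither passed in KO (limma adjusted p = 0.921 and 0.709).

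Of 34 repressors of the state, all tested, 12 rose and 4 fell in KO with a median log2 difference of 0.10, against 24% and 21.4% of all tested genes. In 2i minus FBS 9 were higher and 19 lower with a median of -0.15, against 37.1% and 35.3% of all tested genes. Lin28a, an RNA-binding protein that also blocks let-7 maturation, moved most of those named: it had 39.0 ± 3.24 FPKM in KO, 12.8 ± 4.18 FPKM in WT 2i and 113 ± 16.7 FPKM in WT FBS, a rise of 1.59 in KO (SE 0.20, limma adjusted p = 4.58e-05) and -3.10 for 2i minus FBS (SE 0.20, limma adjusted p = 2.36e-08). The histone H3K9 methyltransferases Ehmt1 and Setdb1 rose in KO by 0.15 and 0.17 (limma adjusted p = 0.0250 and 0.00648) and were lower in 2i, with log2 differences of -0.94 and -0.50. Sumo2 and Smchd1 did not pass in KO (limma adjusted p = 0.144 and 0.128) and were lower in 2i, with log2 differences of -0.45 and -0.60. Trim28, the most abundant repressor, had 431 ± 15.4 FPKM in KO, 379 ± 37.1 FPKM in WT 2i and 523 ± 72.3 FPKM in WT FBS; KO minus WT did not pass (limma adjusted p = 0.0962), and 2i minus FBS was -0.46 (SE 0.09, limma adjusted p = 0.000406).

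Several values of the libraries stand beside these results, and their part in them was not tested except where a fit is named. Tfcp2l1 itself had 72.0 to 84.7 FPKM in KO, 112 to 143 FPKM in WT 2i and 25.8 to 37.1 FPKM in WT FBS, and the level of the whole transcript does not check the knockout. The 8 ESC markers summed to 3842 to 4010 FPKM in KO, 4127 to 4820 FPKM in WT 2i and 2817 to 3833 FPKM in WT FBS, with none under 1 FPKM on average; 5 of the 8 fell in KO and none rose, and 6 of the 8 were higher in 2i than in FBS and none lower. Of 24 fibroblast markers, 23 were tested and 20 rose in KO and none fell. In 2i minus FBS, 12 were higher and 6 lower. The 24 markers summed to 927 to 1429 FPKM in KO, 766 to 955 FPKM in WT 2i and 398 to 517 FPKM in WT FBS. Sparc, Col1a1 and Vim were highest. Sparc did not pass in KO (log2 difference -0.18, limma adjusted p = 0.198) and was higher in 2i than in FBS by 1.56. Col1a1 was higher in both comparisons, by 0.91 and 1.40. Vim rose in KO by 1.02 and differed by -1.01 for 2i minus FBS. None of the 24 was at 0 on average in any group; means under 1 FPKM were those of Fap in KO, of Fap and Pdgfra in WT 2i, and of Fap, Lum and Dcn in WT FBS. Their mean log2 level was 4.03, 4.25, 4.39 and 4.69 in KO replicates 1 to 4 and 3.42, 3.53, 3.76 and 3.90 in WT 2i replicates 1 to 4, so KO replicate 4 was highest in these markers and lowest in Zscan4, while in WT 2i Zscan4 did not follow their order. With that level as a covariate the summed Zscan4 difference between KO and WT 2i was 2.11 on the log2 scale and 3 of the 8 genes passed. Among the other tested markers, 3 of 3 neural markers rose in KO, 5 of 9 trophoblast markers rose and 1 fell, 3 of 5 endoderm markers rose and 1 fell, and 2 of 7 primed epiblast markers rose and none fell. The lists hold 8 neural, 10 trophoblast, 12 endoderm and 8 primed epiblast markers. Beside all these marker counts, 24% of all tested genes rose and 21.4% fell in KO. In 2i minus FBS, 37.1% of all tested genes were higher and 35.3% lower. The sums in KO were at most 33.0 FPKM for neural, 75.0 FPKM for trophoblast, 21.7 FPKM for endoderm and 81.8 FPKM for primed epiblast markers.

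Relative depth, read from low values that share a step between 2 libraries, was 0.69 to 1.01 in KO, 0.70 to 0.93 in WT 2i and 0.73 to 0.91 in WT FBS, with KO replicate 1 set to 1. The WT 2i replicates low in Zscan4, 2 and 4, had 0.93 and 0.70, and the high ones, 1 and 3, had 0.71 and 0.73. The median offset of chromosome 6 genes was 0.18 and 0.21 on the log2 scale in WT 2i replicates 2 and 4, where Zscan4 was low. It was 0.05 and -0.11 in WT 2i replicates 1 and 3, where Zscan4 was high. In KO replicates 1 to 4 it was -0.08, 0.02, -0.08 and -0.08, with Zscan4 lowest in replicate 4. In WT FBS it was 0.06, -0.01, -0.17 and -0.06, with Zscan4 lowest in replicate 2. A link with Zscan4 was not tested. For chromosome 7, which carries Zscan4 and Usp17le, offsets in WT 2i lay between -0.02 and 0.00.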

How the data were processed

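Trizol RNA was made into TruSeq libraries, per the labels' protocols. The submitters' processing notes name CASAVA 1.8.2, Cufflinks and build mm9, and no aligner is named there. The authors deposited FPKM values per RefSeq transcript with bounds and a status, per the file headers; they summed to 347772 to 358340 per library. Symbols came from RefSeq (GRCm38.p6) and then GENCODE vM21 name tables, older names and synonyms included (Alyref was listed as Tho4), for 98.8% of entries, with 362 unnamed. Genes with a failed entry (7) were left out, and entries were summed per symbol. Deposited coordinates are mm9, 1-based; promoter coordinates are GRCm38.p6.

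Genes that reached 1 FPKM in 4 or more libraries were tested on log2(FPKM + 1) with limma 3.58.1 in R 4.3.3: 1 mean per group over 12 libraries, eBayes with an intensity trend, two-sided, Benjamini-Hochberg adjusted over 12329 genes, called at an adjusted p under 0.05. The model was also run on simulated data in which genes varied independently, each with the same spread in every group. That setting differs from the genes described here, so it does not bear on their calls. Python 3.11.15, numpy 2.4.6, pandas 2.3.3, scipy 1.17.1, Biopython 1.88 and matplotlib 3.10.9 were used.

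The genes and lists were chosen with earlier results of these data known. Named by rule were the members, Tfcp2l1, up to 6 genes per list with the smallest adjusted p in either comparison and its highest member, the 10 most and 5 least alike genes by group-centred correlation with summed Zscan4, and the 3 highest markers of lists that moved. The result of 1 gene that the rule names is not reported here. Alternatives were pseudocounts, filters, scalings, the 8 libraries of a comparison alone, a replicate block, the highest entry per symbol, a fibroblast covariate and leaving out each library.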

Additional observations from a re-analysis of the deposited data

How the results depend on the processing

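No member changed direction under any alternative. In 2i minus FBS, all 8 genes passed throughout, with 7 tested and passing under a filter of 5 FPKM (Zfp352 was not tested there). In KO minus WT 2i, the 6 genes passing became 0 with a pseudocount of 0.1 and 0 with 0.01, in the fit of all 12 libraries. With a pseudocount of 0.1 and the 8 libraries of the comparison alone, an alternative chosen after seeing the data, 6 passed. These were not the same 6 genes, as Zscan4f passed and Zfp352 did not. The 8 libraries alone at a pseudocount of 1 gave the same exchange (limma adjusted p = 0.0455 for Zscan4f and 0.0545 for Zfp352). With the fibroblast marker level as a covariate, 3 of the 8 passed, genes called fell to 1977, against 5589, and the summed Zscan4 difference was 2.11, against 1.26; the covariate itself differs between the groups. Leaving out 1 library gave 3 to 8 of the 8, with 3 without WT 2i replicate 2 or 4, and 4710 to 5922 genes called. The other alternatives gave 5 to 7 of the 8, with no cause tested. Same-numbered libraries did not all deviate together (correlations 0.06, 0.26, 0.22 and 0.19 between KO and WT 2i, and 0.03, 0.12, 0.03 and 0.19 between WT 2i and FBS). KO replicates 2, 3 and 4 correlated best with the WT 2i library of their own number, and KO replicate 1 with WT 2i replicate 3. WT 2i replicates 2 and 4 correlated best with the FBS library of their own number, and replicates 1 and 3 did not. The labels name no shared batch, so whether the numbers pair the libraries cannot be told. With the replicate block, 8 of the 8 passed and 5567 genes were called, and in 2i minus FBS 8 and 8899. Levels near 1 FPKM in FBS limit statements on single copies there.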

Other observations

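Other SCAN-domain zinc finger genes are relatives of Zscan4 by domain. Of 30 listed, 20 were tested; 7 rose and 1 fell in KO, with a median log2 difference of 0.11, against 24% and 21.4% of all tested genes. In 2i minus FBS 6 were higher and 5 lower, with a median of -0.01, against 37.1% and 35.3% of all tested genes. Peg3, an imprinted gene and the most abundant of them, had 55.2 ± 9.92 FPKM in KO, 24.2 ± 6.08 FPKM in WT 2i and 91.0 ± 6.78 FPKM in WT FBS (SD, n = 4 each), with log2 differences of 1.17 in KO (SE 0.16, limma adjusted p = 8.93e-05) and -1.90 for 2i minus FBS (SE 0.16, limma adjusted p = 2.42e-07). Zkscan5 and Zkscan17 rose in KO by 0.46 and 0.33 (limma adjusted p = 0.000165 and 0.00812), and Zscan2 fell by 0.30 (limma adjusted p = 0.0498). Zscan10, an ESC factor, and Zfp110 did not pass in KO (limma adjusted p = 0.0734 and 0.578) and differed between media, by -0.96 and 0.48 for 2i minus FBS. Zfp110 had a group-centred r of 0.76 with summed Zscan4 over the 12 libraries, and Peg3 of 0.00.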
